A study of Mus musculus with 6 samples.

Results

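Genes of the tendon lineage were followed in limb bone RNA from mouse pups with and without a conditional deletion of Hdac3. The 7 genes are Scx, Mkx, Tnmd, Thbs4, Col12a1, Col14a1 and Tppp3, chosen by symbol from the 43346 genes of the count table. All 7 passed the filter on low counts, which kept 20210 genes. The study measured mRNA by RNA-seq (TruSeq v2 mRNA kit) in 6 libraries from C57BL/6 pups 1 day old, 3 wild type and 3 labelled Hdac3 CKO, a conditional knockout made with Prx1. The Prx1 (Prrx1) enhancer is used to switch on Cre in limb bud mesenchyme, whose descendants include bone, cartilage and tendon cells but not muscle fibres or blood cells. The labels name no Cre or floxed allele in the wild type pups, and no clone or pooling of animals. Whether the libraries are separate pups or litters is not stated, so p-values measure only how far these libraries spread, some of which may be technical.

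Tendon is a cord of parallel collagen fibrils laid down by tenocytes. The transcription factor scleraxis (Scx) marks tendon progenitors, Mohawk (Mkx) acts in the growth of collagen fibrils, and tenomodulin (Tnmd) is a membrane protein of differentiated tenocytes that depends on scleraxis. Thrombospondin 4 (Thbs4) and the fibril-associated collagens XII (Col12a1) and XIV (Col14a1) belong to the tendon matrix, and Tppp3, a microtubule-binding protein, marks the tendon sheath. Collagens XII and XIV are also made in periosteum, fascia and dermis, so no single gene of the group is proof of tendon tissue. Bones had been cleaned of soft tissue before lysis, and how much tendon and entheses stayed on each bone is not recorded. In bulk RNA, fewer cells of a type and less RNA per cell cannot be told apart.

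Thbs4 rose about 2-fold in Hdac3 CKO bones and was the only one of the 7 genes to pass the test, where a gene passes at an adjusted p under 0.05 in edgeR's quasi-likelihood test over all genes. The lineage factors Scx and Mkx, the tenocyte gene Tnmd, the collagens Col12a1 and Col14a1 and the sheath gene Tppp3 did not pass. Thus 1 of 7 genes rose, 0 fell and 6 did not pass, where 1.12% of all tested genes passed in either direction. The median log2 fold change of the 7 was 0.13, and that of all tested genes was 0.00088. At an unadjusted p under 0.05 there were 2 of the 7, Thbs4 and Col14a1, and the same holds for 14.7% of all tested genes.

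Across the series, library totals ran from 43389262 to 50927978 counts, 135 genes rose and 91 fell. With library totals in place of TMM scaling factors the numbers were 54 and 106, and the median of all genes moved to -0.18. Hdac3, the targeted gene, stood at 48.4, 47.4 and 50.3 CPM (counts scaled to a common library size) across wild type replicates 1 to 3 and at 31.8, 29.4 and 28.3 CPM across Hdac3 CKO replicates 1 to 3. It fell to 0.613 of the wild type level, with a log2 fold change of -0.71 ± 0.12 (SE) and an adjusted p of 0.029 in edgeR. That call was lost with any 1 wild type library, Hdac3 CKO replicate 2 or Hdac3 CKO replicate 3 dropped (adjusted p 0.067 to 0.13 in edgeR), while the levels did not overlap. The labelled tissue carried bone genes such as Ibsp (1095 CPM in wild type) and Spp1 (2496 CPM), while the osteocalcin gene Bglap averaged 18.1 CPM. Skeletal muscle markers summed to 28080 to 34290 CPM in wild type and 31411 to 52397 CPM in Hdac3 CKO, with the highest sum in Hdac3 CKO replicate 1. Cartilage markers stood apart in wild type replicate 3 (6453 CPM) and Hdac3 CKO replicate 3 (13724 CPM), against 723 to 1316 CPM in the other 4 libraries. All 5 macrophage markers rose, with sums of 174 to 198 CPM in wild type against 335 to 430.2 CPM in Hdac3 CKO. All 4 neutrophil markers fell, with sums of 69.9 to 202 CPM against 13.7 to 20.2 CPM. Among all tested genes 0.668% rose and 0.450% fell.

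Upstream sequence was at hand for 2 of the 7 genes, from RefSeq on GRCm38.p6, the assembly also called mm10. It is shown for Thbs4, which rose, and for Tnmd, which did not pass and had the highest level per length in wild type. Capitals mark CANNTG, the E-box, the motif that basic helix-loop-helix factors such as scleraxis bind, and which reads the same on both strands. Both sequences end at the last base before the start of the gene in the count table and are written 5′ to 3′ in the direction of the gene. For Thbs4 the RefSeq start is the same, while for Tnmd it lies 28 bases further on. The Thbs4 sequence is chr13:92794819-92795068 on the minus strand, and the Tnmd sequence is chrX:133850758-133850979 on the plus strand.
Thbs4: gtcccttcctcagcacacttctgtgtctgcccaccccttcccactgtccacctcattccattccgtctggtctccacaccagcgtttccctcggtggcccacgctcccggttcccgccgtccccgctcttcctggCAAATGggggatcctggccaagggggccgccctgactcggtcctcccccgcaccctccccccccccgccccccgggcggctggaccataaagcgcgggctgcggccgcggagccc
Tnmd: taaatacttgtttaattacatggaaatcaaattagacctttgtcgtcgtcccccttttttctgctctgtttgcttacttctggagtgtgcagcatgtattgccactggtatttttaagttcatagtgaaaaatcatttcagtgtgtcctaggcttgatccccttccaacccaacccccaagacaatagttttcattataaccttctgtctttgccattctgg
The 250 bases before Thbs4 held 1 E-box, the hexamer CAAATG, 110 to 115 bases before the start. The 222 bases before Tnmd held 0. Over all 32851 promoters in the RefSeq table, 66.2% held an E-box in a window as long as that of Thbs4 and 62.4% in one as long as that of Tnmd. The latter windows left out the 28 bases next to each RefSeq start, as for Tnmd. The GC content was 70.8% before Thbs4 and 39.2% before Tnmd. A match describes letters in this window only and says nothing of binding.

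Of the transcription factors, Scx (ENSMUSG00000034161, chr15:76457438-76459468, plus strand) stood at 21.1, 13.8 and 20.02 CPM across wild type replicates 1 to 3. Across Hdac3 CKO replicates 1 to 3 the level was 32.1, 17.8 and 21.5 CPM. The genotypes overlapped, and Hdac3 CKO replicate 1 was the single high library. Wild type averaged 18.3 ± 3.9 CPM (SD, n = 3), and Hdac3 CKO averaged 23.8 ± 7.5 CPM (SD, n = 3). The log2 fold change was 0.38 ± 0.24 (SE) and the adjusted p was 0.49 in edgeR, and the 95% interval of the fold ran from 0.897 to 1.88. With 1 library dropped the log2 fold change ran from 0.090 (Hdac3 CKO replicate 1) to 0.55 (Hdac3 CKO replicate 2). With the muscle marker mean as a covariate it was 0.11 ± 0.26 (SE). The muscle marker sum was also highest in Hdac3 CKO replicate 1, and what part muscle content had in the Scx value was not tested. Scx lies whole within an intron of Bop1, a ribosome biogenesis gene on the opposite strand, and the exons of the pair share 0 bases. The strand setting of the counting is not given in the sources used here, so unspliced Bop1 reads cannot be told apart from Scx reads. The mean level of Bop1 was 24.4 CPM for wild type against 28.1 CPM for Hdac3 CKO.

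Mkx (ENSMUSG00000061013, chr18:6910459-7004780, minus strand) stood at 32.9, 18.4 and 16.9 CPM across wild type replicates 1 to 3 and at 15.6, 15.0 and 17.3 CPM across Hdac3 CKO replicates 1 to 3. Wild type replicate 1 lay far above the other 5 libraries, and Hdac3 CKO replicate 3 lay above wild type replicate 3. The spread was 38.8% of the mean in wild type and 7.37% in Hdac3 CKO. The log2 fold change of -0.51 ± 0.24 (SE) had an adjusted p of 0.36 in edgeR, with a 95% interval of the fold from 0.485 to 1.02. With 1 library dropped it ran from -0.68 (wild type replicate 3) to -0.15 (wild type replicate 1). Both transcription factors had few counts for the group, 712 to 1327 for Scx and 638 to 1750 for Mkx. The counting error at the lowest Mkx count was 3.96% of the value, under the spread between libraries.

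Tnmd (ENSMUSG00000031250, chrX:133850980-133865577, plus strand) stood at 239.3, 178.7 and 192.6 CPM across wild type replicates 1 to 3. Across Hdac3 CKO replicates 1 to 3 the level was 237.1, 268.8 and 178.2 CPM, so the lowest and the highest of the 6 libraries were both Hdac3 CKO. Wild type averaged 204 ± 32 CPM (SD, n = 3), and Hdac3 CKO averaged 228 ± 46 CPM (SD, n = 3). The log2 fold change was 0.16 ± 0.18 (SE) and the adjusted p was 0.70 in edgeR. The 95% interval of the fold, 0.846 to 1.48, spans no change. With 1 library dropped the log2 fold change ran from 0.033 (Hdac3 CKO replicate 2) to 0.31 (Hdac3 CKO replicate 3). Scaled by library totals, not TMM, it had the opposite sign at -0.017.

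Thbs4, a secreted pentameric glycoprotein of tendon, its junction with muscle and other connective tissues (ENSMUSG00000021702, chr13:92751590-92794818, minus strand), stood at 351, 307 and 304 CPM across wild type replicates 1 to 3. Across Hdac3 CKO replicates 1 to 3 the level was 860.2, 603 and 582 CPM. All 3 Hdac3 CKO libraries lay above all 3 wild type libraries, and Hdac3 CKO replicate 1 was the highest. Wild type averaged 321 ± 26 CPM (SD, n = 3), and Hdac3 CKO averaged 682 ± 155 CPM (SD, n = 3). Thbs4 rose 2.13-fold, with a 95% interval from 1.61 to 2.81, a log2 fold change of 1.09 ± 0.18 (SE) and an adjusted p of 0.027 in edgeR. A two-sided exact permutation test over the 6 libraries gave p = 0.1, the lowest value possible with 3 libraries a genotype. Dropping any of wild type replicates 1, 2 and 3 lost the call (adjusted p 0.087, 0.13 and 0.10 in edgeR), as did dropping Hdac3 CKO replicate 3 (0.067), with log2 fold changes of 1.05 to 1.19. It held when Hdac3 CKO replicate 1 was dropped (log2 fold change 0.88, adjusted p 0.014) or when replicate 2 of that genotype was (1.17, adjusted p 0.039). On the deposited RPKM values in limma it was lost, with adjusted p 0.082 at a pseudocount of 1.

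Like Thbs4, the skeletal muscle marker sum was highest in Hdac3 CKO replicate 1. Of 10 muscle markers 0 rose or fell, but all 10 had log2 fold changes above 0, with a median of 0.39. With the muscle marker mean as a covariate Thbs4 stood at 0.87 ± 0.14 (SE) and the adjusted p was 0.035 in edgeR. With the cartilage marker mean as a covariate it stood at 1.07 ± 0.19 (SE) and the adjusted p was 0.047 in edgeR. Osteoblast marker sums also did not overlap between genotypes, at 3109 to 5616 CPM in wild type and 5789 to 9213 CPM in Hdac3 CKO. Of the 8 osteoblast markers 5 were higher and 3 lower in Hdac3 CKO, and 1 rose, where 0.668% of all tested genes rose. What part muscle, cartilage or osteoblast content had in the Thbs4 result was not tested.

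**Figure D1:**
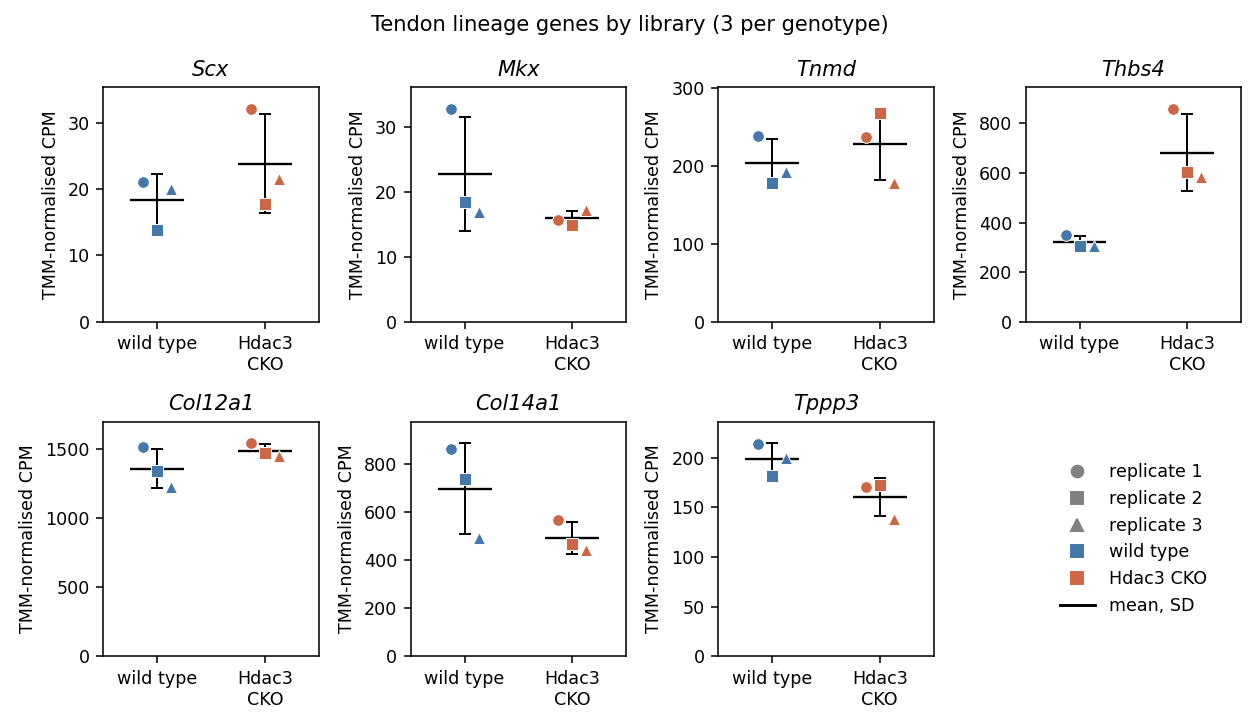
Each panel plots TMM-normalised CPM (y axis, from 0) of 1 tendon lineage gene by genotype (x axis), with a marker shape per replicate, a bar at the mean and whiskers of 1 SD over 3 libraries. Thbs4 separates the genotypes, at 304 to 351 CPM in wild type against 582 to 860.2 CPM in Hdac3 CKO. Tppp3 does so too, lower in Hdac3 CKO, at 182 to 214 CPM against 138 to 173 CPM. Scx, Mkx, Tnmd, Col12a1 and Col14a1 overlap, and 22.5% of all tested genes did not overlap.

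Col12a1 (ENSMUSG00000032332, chr9:79598991-79718831, minus strand) encodes collagen XII, which binds collagen I fibrils and links them to other matrix. It stood at 1510, 1340 and 1224 CPM across wild type replicates 1 to 3 and at 1541, 1468 and 1449 CPM across Hdac3 CKO replicates 1 to 3. The log2 fold change was 0.13 ± 0.15 (SE) and the adjusted p was 0.71 in edgeR, and wild type replicate 1 lay within the Hdac3 CKO range. The 95% interval of the fold was 0.871 to 1.37. With 1 library dropped the log2 value lay between 0.061 (wild type replicate 3) and 0.21 (wild type replicate 1). Scaled by library totals it had the opposite sign at -0.055.

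Col14a1 (ENSMUSG00000022371, chr15:55307750-55520803, plus strand) encodes collagen XIV, which acts in the early assembly of fibrils. It stood at 862, 736 and 492 CPM across wild type replicates 1 to 3 and at 565, 466 and 441 CPM across Hdac3 CKO replicates 1 to 3. Wild type replicate 3 lay below Hdac3 CKO replicate 1, so the genotypes overlapped. The log2 fold change was -0.50 ± 0.21 (SE), with an unadjusted p of 0.038 and an adjusted p of 0.31 in edgeR. It was -0.70 with wild type replicate 3 dropped and -0.32 with replicate 1 of that genotype dropped, and neither passed.

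Tppp3 (ENSMUSG00000014846, chr8:105467493-105471526, minus strand) stood at 214, 182 and 199.8 CPM across wild type replicates 1 to 3 and at 170.0, 173 and 138 CPM across Hdac3 CKO replicates 1 to 3. The highest Hdac3 CKO library (173 CPM) lay under the lowest wild type library (182 CPM). The log2 fold change was -0.31 ± 0.14 (SE) and the adjusted p was 0.34 in edgeR, and the 95% interval of the fold ran from 0.650 to 1.00. Thbs4 and Tppp3 were thus the 2 of 7 genes, or 28.6%, whose values did not overlap between genotypes, 1 higher and 1 lower in Hdac3 CKO. The same held for 22.5% of all tested genes, 11.5% higher and 10.9% lower.

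**Figure D2:**
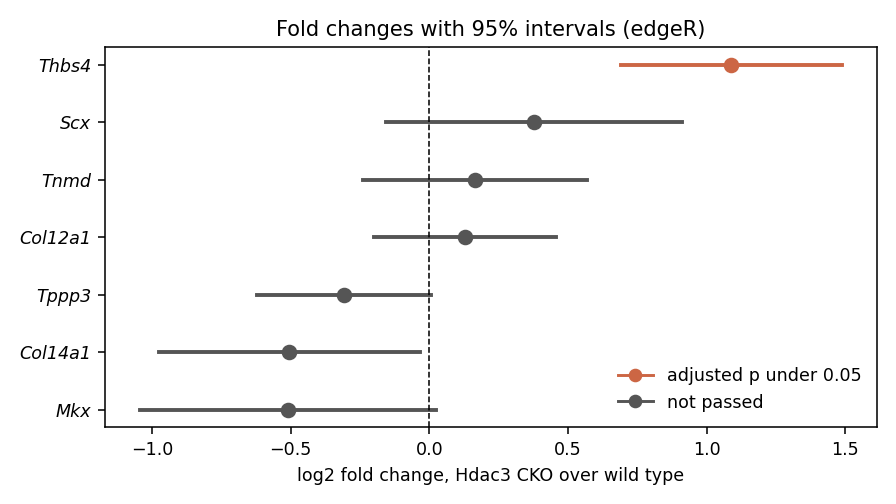
Points are log2 fold changes of Hdac3 CKO over wild type (x axis) for the 7 genes (y axis), with lines for 95% intervals from edgeR. The interval of Thbs4 runs from 0.69 to 1.49 and is the only one in colour, since Col14a1, whose interval of -0.97 to -0.04 also leaves out 0, did not pass after adjustment over all genes.

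Loose connective tissue also expresses collagen XIV. The summed level of 6 connective tissue fibroblast markers was 532 to 689 CPM in wild type and 489 to 505 CPM in Hdac3 CKO. Of these 6, 2 fell, which were Dpp4 (log2 fold change -2.08) and Pi16 (-1.25), markers of fascia and adventitial fibroblasts, and 0 rose, where 0.450% of all tested genes fell. Their part in the Col14a1 and Tppp3 values was not tested. Summed periosteum markers overlapped, at 2659 to 4207 CPM in wild type and 1980 to 5136 CPM in Hdac3 CKO. Markers of synovial joint overlapped too, at 58.0 to 100.1 CPM and 58.0 to 90.5 CPM, and 0 of 4 passed.

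**Figure D3:**
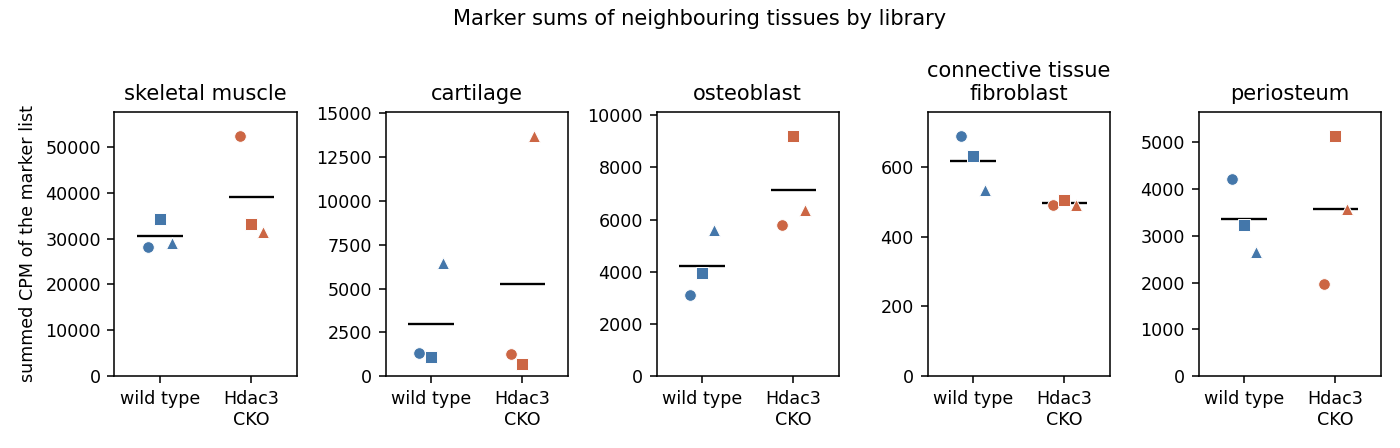
Summed CPM (y axis, from 0) of 5 marker lists by genotype (x axis), with circles, squares and triangles for replicates 1, 2 and 3 and a bar at the mean. Muscle is highest in Hdac3 CKO replicate 1 at 52397 CPM and cartilage in Hdac3 CKO replicate 3 at 13724 CPM. The osteoblast and fibroblast sums do not overlap between genotypes, though the osteoblast sum joins 5 markers higher and 3 lower in Hdac3 CKO.

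Levels were compared between genes only per length, on the deposited RPKM (reads scaled by gene length and a library size). In wild type, Tnmd was highest at 124 ± 8 RPKM (SD, n = 3), above Tppp3 (88.7 ± 1.7), Col14a1 (82 ± 20), Thbs4 (80.5 ± 3.2) and Col12a1 (73.7 ± 5.9). The ranges of Tppp3, Col14a1, Thbs4 and Col12a1 overlapped from each neighbour to the next. Tppp3 lay above Col14a1 in 1 of 3 libraries and Col14a1 above Thbs4 in 2 of 3, so the place of Col14a1 is not resolved. Thbs4 lay above Col12a1 in each wild type library. The transcription factors were far lower, with Scx at 13.2 ± 2.0 RPKM and Mkx at 4.7 ± 1.4 RPKM. In Hdac3 CKO, Thbs4 came first at 157 ± 37 RPKM and Tnmd second at 128 ± 27 RPKM, with overlapping ranges and Thbs4 above Tnmd in 2 of 3 libraries. Col12a1 (74.0 ± 3.3 RPKM), Tppp3 (65.8 ± 8.7 RPKM) and Col14a1 (53.1 ± 7.7 RPKM) followed in that order in each Hdac3 CKO library. Here too the ranges overlapped from each neighbour to the next.

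Ratios within a library do not depend on library scaling. The RPKM of Thbs4 over that of Tnmd was 0.603, 0.707 and 0.649 across wild type replicates 1 to 3 and 1.49, 0.924 and 1.35 across Hdac3 CKO replicates 1 to 3. Over Col12a1 it was 1.06 to 1.15 in wild type and 1.86 to 2.58 in Hdac3 CKO, and over Tppp3 it was 0.854 to 0.948 and 1.96 to 2.84. The ratio of Thbs4 to each of the 6 other genes was higher in all 3 Hdac3 CKO libraries than in any wild type library. The same held for 84.4% of 20126 other genes, so this count repeats the rise of Thbs4 and adds no change of its own.

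Within a genotype, several of the 7 genes were high or low in the same library. In wild type replicate 1, 7 of 7 genes lay above their wild type mean on the log2 scale, and in wild type replicate 2 only Col14a1, 1 of 7, did. In Hdac3 CKO replicate 1, 6 of 7 lay above their Hdac3 CKO mean, with Mkx the exception, and in Hdac3 CKO replicate 3 only Mkx, 1 of 7, did. The shares of all tested genes that did so are not given here. Over all 6 libraries the highest Pearson correlation between 2 of the genes was 0.80, for Mkx with Col14a1. The next was 0.72, for Thbs4 with Col12a1. The lowest was -0.62, for Thbs4 with Tppp3, and Thbs4 stood at -0.47 with both Mkx and Col14a1. Scx and Tnmd correlated at 0.34. These values are descriptions over 6 libraries that differ in depth and in muscle and cartilage content.

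The mean standardised level of the 7 genes was then set against each of 15904 other genes with a mean count of at least 50. Among the most alike were Commd10 (r = 0.98 over 6 libraries), Rdh10 (0.98), Tk1 (0.97), Tmem243 (0.97), Igfbp2 (0.96), 6330403A02Rik (0.96) and Hoxb7 (0.96). For Scx alone they were Tmco6 (0.99), Gnb5 (0.99), Zfp771 (0.99) and Mta2 (0.99), and for Tnmd alone Rhou (0.99), Sgk1 (0.99), Pthlh (0.98) and Nfil3 (0.98). For Col12a1 they were Acyp2 (0.98), Fam65a (0.97), Gm10638 (0.97) and Edn1 (0.97). None of these genes was on the lists of tendon regulators or tendon matrix. The r values are the highest picked from 15904 genes over only 6 libraries, and shared regulation was not tested.

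Among 18 other regulators of tendon, 1 fell, 0 rose and 17 did not pass, with a median log2 fold change of -0.20. Of all tested genes 0.450% fell and 0.668% rose. The gene that fell was Egr2, a zinc finger factor that acts in collagen fibril formation in tendon. It stood at 15.1, 10.3 and 13.02 CPM across wild type replicates 1 to 3 and at 4.16, 3.31 and 3.77 CPM across Hdac3 CKO replicates 1 to 3. Its fall to 0.293 of the wild type level (log2 fold change -1.77 ± 0.20 SE, adjusted p 0.0088 in edgeR) kept its call for each single library dropped, at adjusted p values between 0.0071 and 0.042. Without both cartilage-rich libraries, a fit in which 0 of all genes passed in edgeR and 2240 had an unadjusted p under 0.05, its log2 fold change was -1.77 (adjusted p 0.11). Its relative Egr1, which also acts in tendon, had a log2 fold change of -0.48 ± 0.26 (SE), which did not pass (adjusted p 0.42 in edgeR).

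TGF-beta signals recruit and maintain tendon progenitors, and none of the TGF-beta ligands, receptors or Smads on the list passed. Tgfb2 and Tgfb3, ligands of forming tendon, stood at -0.22 and 0.27, the receptor Tgfbr2 at 0.23 and the transducer Smad3 at 0.40, all log2 fold changes. The genes next in order of p were Eya2 (0.56), Hoxa11 (-0.70), which patterns the tendons of the forearm and shank, and Eya1 (-0.64), and their genotypes did not overlap. Hedgehog-responsive Gli1, a marker of the enthesis where tendon meets bone, stood at -0.28. Of the 18 regulators 7 had values that did not overlap between genotypes, 4 of them lower and 3 higher, where 22.5% of all tested genes did not overlap.

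Genes of the tendon and ligament matrix that passed were all higher in Hdac3 CKO. Of 24 such genes 5 rose, 0 fell and 19 did not pass, with a median log2 fold change of 0.61, and 0.668% of all tested genes rose. The list was chosen with earlier results of these data known, so its share is not an independent test. Cilp, a matrix protein of cartilage and tendon that binds TGF-beta, rose most, from 70.6, 51.4 and 57.8 CPM across wild type replicates 1 to 3 to 267.8, 180.9 and 185 CPM across Hdac3 CKO replicates 1 to 3. It rose 3.53-fold (log2 fold change 1.82 ± 0.19 SE, adjusted p 0.0084 in edgeR) and kept its call for each single library dropped, at adjusted p values between 0.0024 and 0.033. Without both cartilage-rich libraries its log2 fold change was 1.88 (adjusted p 0.11 in edgeR). Its relative Cilp2 rose from a mean of 18.6 to 38.1 CPM (log2 fold change 1.04). Col5a1, whose product sets the width of collagen I fibrils, rose from 1879 to 3793 CPM (1.01). The small proteoglycan Bgn rose from 1432 to 2717 CPM (0.92), and Tnc, tenascin C, rose from 663 to 1186 CPM (0.84).

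Of the 24 matrix genes 19 were higher and 5 lower in Hdac3 CKO. The main fibril collagens Col1a1 (0.75), Col1a2 (0.64) and Col3a1 (0.62) and the 3 collagen VI chains (0.53 to 0.74) did not pass, though their genotypes did not overlap. The small leucine-rich proteoglycans Lum (-0.24), Kera (-0.21) and Dcn (-0.48) had values below 0, while Fmod stood at 0.50. None of these passed, and the genotypes overlapped for each. In all, 15 of the 24 had non-overlapping values, each higher in Hdac3 CKO, where 11.5% of all tested genes did so. As the list was chosen with earlier results known, this share too is not an independent test. Dropping wild type replicate 1, wild type replicate 2 or Hdac3 CKO replicate 3 left 1 risen matrix gene. Dropping wild type replicate 3 or Hdac3 CKO replicate 2 left 2, and dropping Hdac3 CKO replicate 1 left 5. Over these 6 fits the log2 fold changes ran from 0.90 to 1.16 for Cilp2, from 0.92 to 1.09 for Col5a1, from 0.81 to 0.99 for Bgn and from 0.75 to 0.94 for Tnc. Many of these genes are also made by osteoblasts, whose marker sum was higher in each Hdac3 CKO library. Of the 8 markers summed, 5 were higher and 3 lower in Hdac3 CKO, and the part of osteoblast content was not tested.

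**Figure D4:**
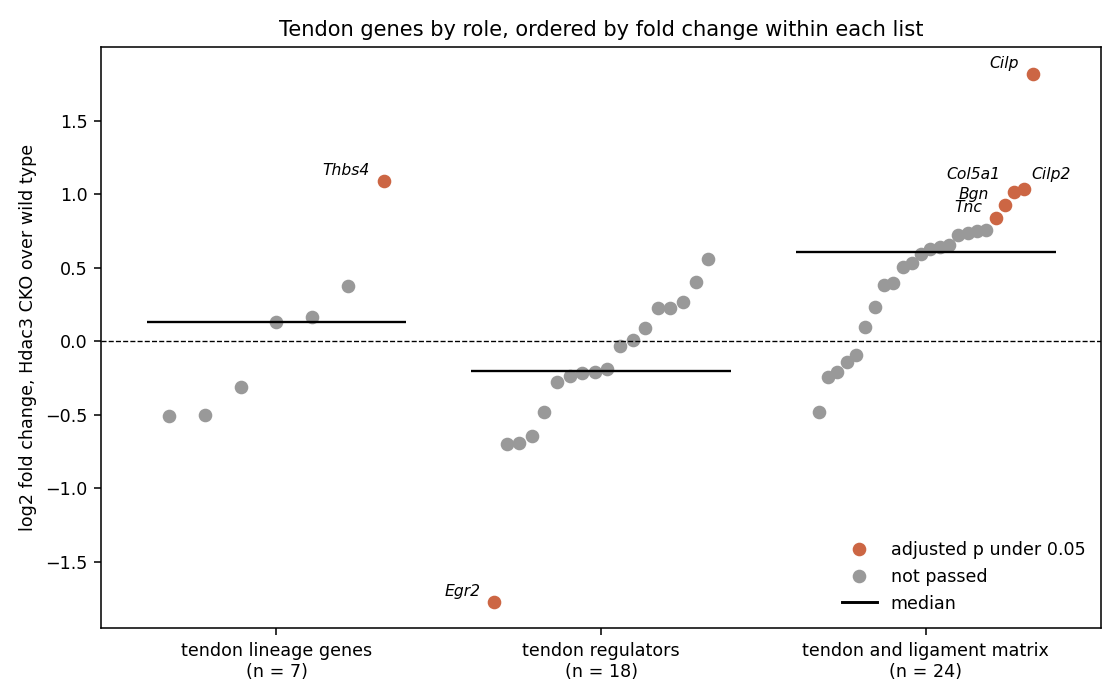
Each point is the log2 fold change of Hdac3 CKO over wild type (y axis) of 1 tested gene, in 3 lists (x axis) and ordered by value within each, with a bar at the list median. The 7 genes that passed are coloured and named: Thbs4, Egr2 and the 5 matrix genes Cilp, Cilp2, Col5a1, Bgn and Tnc.

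Relatives of the 7 genes gave a further comparison. Among the thrombospondins, 1 of 5 rose, which was Thbs4 itself, where 0.668% of all tested genes rose. Thbs2, a trimeric thrombospondin of connective tissue, stood at 637, 538 and 467 CPM across wild type replicates 1 to 3 and at 899.8, 883 and 876 CPM across Hdac3 CKO replicates 1 to 3, without overlap. Its log2 fold change of 0.70 ± 0.15 (SE) had an adjusted p of 0.072 in edgeR. Thbs3 stood at 0.01 and Thbs1 at -0.20. Comp, the pentameric thrombospondin nearest to Thbs4 in form and shared by tendon and cartilage, stood at 0.76 ± 0.77 (SE). Its highest libraries were those rich in cartilage, 156 CPM in wild type replicate 3 and 369 CPM in Hdac3 CKO replicate 3, and with the latter dropped its log2 fold change was -0.40.

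Of 9 fibril-associated collagens, Col12a1 and Col14a1 included, 0 rose or fell in edgeR, and 3 had an unadjusted p under 0.05, as did 14.7% of all tested genes. Col22a1, the collagen of the junction between muscle and tendon, stood at 232, 245 and 327 CPM across wild type replicates 1 to 3 and at 183, 196 and 156 CPM across Hdac3 CKO replicates 1 to 3, without overlap. Its log2 fold change was -0.59 ± 0.17 (SE) and the adjusted p was 0.15 in edgeR. Tppp, the brain relative of Tppp3, had a similar value at -0.50 ± 0.16 (SE) and the adjusted p was 0.19 in edgeR. Of the 6 tested Iroquois and Mohawk homeobox genes 0 passed, and Irx3 stood at 0.93 and Irx5 at -0.31.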

How the data were processed

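The study deposited RNA-seq of limb bones from 3 wild type and 3 Hdac3 CKO libraries. The authors deposited raw read counts per gene and RPKM values, which scale counts by gene length and a library size. That size differs from the sum of the deposited counts, so the RPKM fits and the fit on library totals use different scaling. The build was mm10, and the tools named per the submitters' processing notes were featureCounts, Subread, TopHat2 (2.1.0) and bcl2fastq (1.8.4). Not given in the sources used here are the annotation release, how multi-mapped reads were handled and whether counting used strand. Of the gene identifiers 98.0% were found in GENCODE M21, used for strand and exons.

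Counts were filtered with edgeR 4.0.16 (R 4.3.3), which left 20210 genes, scaled by TMM and tested with the robust quasi-likelihood test without covariates. Benjamini-Hochberg adjustment ran over all tested genes, with a threshold of 0.05. CPM values are TMM-normalised. Errors of fold changes are SE from the fit, and 95% intervals use its total degrees of freedom. No pair of libraries held identical counts, and the lowest chi-square per gene between libraries of 1 genotype was 47.4. The procedure was tested on simulated counts. Alternatives used limma 3.58.1 (voom, and log2 RPKM with a pseudocount of 1 or 0.1), DESeq2 1.42.0, other scaling and filters, covariates and fewer libraries. Replicates were numbered in record order.

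The 7 genes and all lists were chosen with earlier results of these data known. The share of a list beside that of all genes is therefore not an independent test. Named genes were the 7, Hdac3, list genes that passed or had the 3 smallest p, the most alike genes by correlation (1 is not reported here), and marker genes. Other list genes were named after their values were seen: Egr1, Gli1, the TGF-beta genes, Col1a1, Col1a2, Col3a1, Col6a2, Lum, Kera, Dcn, Fmod, Ibsp, Spp1 and Bglap. Bop1 was named for its overlap with Scx.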

Additional observations from a re-analysis of the deposited data

How the results depend on the processing

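Of the 7 tendon lineage genes, Scx, Mkx, Thbs4, Col14a1 and Tppp3 kept their direction under all 17 alternatives, and none but Thbs4 passed under any. Thbs4 passed under 10 of 17, with log2 fold changes of 0.87 to 1.19 over all of them, and adjusted p of 2.6e-06 (DESeq2) to 0.19 (without both cartilage-rich libraries). The number of tendon lineage genes that rose was 0 on log2 RPKM with either pseudocount in limma and 0 without both cartilage-rich libraries, and ranged from 0 to 1 when 1 library was left out. Library totals reversed Tnmd (-0.017) and Col12a1 (-0.055). Among relatives, Comp ran from -0.40 (Hdac3 CKO replicate 3 dropped) to 1.17 with 1 library left out. Lect1, a cartilage relative of Tnmd at 0.36 ± 1.70 (SE), was -0.70 in voom, -0.64 and -0.82 on log2 RPKM with pseudocounts of 1 and 0.1, -1.40 with the pair of cartilage-rich libraries dropped and -0.38 with the cartilage covariate. With 1 library left out Lect1 ran from -2.90 to 1.87, and was -0.034 and -0.058 when wild type replicate 1 or 2 was dropped.

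Over all genes, the number that rose was 54 with library totals, 257 with no filter, 455 in DESeq2, 48 and 59 on log2 RPKM with pseudocounts of 1 and 0.1, and 65 with the cartilage covariate. The number that fell was 193 with no filter, 374 in DESeq2, 59 in voom, 59 with the cartilage covariate and 39 with the muscle covariate. Leaving out 1 library gave 11 to 127 risen and 10 to 75 fallen, and leaving out both cartilage-rich libraries gave 0 of each in edgeR, with 2240 genes at an unadjusted p under 0.05. Tendon regulators numbered 1 risen and 2 fallen in DESeq2, and 0 fallen without both cartilage-rich libraries. Matrix genes that rose numbered 12 in DESeq2, 1 and 2 on log2 RPKM, 3 with the cartilage covariate, 0 without both cartilage-rich libraries and 1 to 5 with 1 library left out. Hdac3 lost its call with the cartilage covariate (log2 fold change -0.71) and without both cartilage-rich libraries (-0.65), and stood at -0.76 to -0.67 with 1 library left out. The causes were not tested. No paired analysis was possible because the labels give no shared replicate numbers. With 3 libraries a genotype, the width of the 95% intervals limits what could be detected, not counting depth.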
